A study of Mus musculus with 2 samples.

Results

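The 9 genes described here encode kinases and adaptor proteins that act directly beneath the B cell receptor: Lyn, Blk, Fyn, Syk, Btk, Blnk, Plcg2, Pik3ap1 and Prkcb. They were chosen by name from 21532 protein-coding genes with a usable start site. The rule itself uses no measured value, but the genes were picked with earlier results of these data known. A peak was given to a gene when its summit lay inside the gene or within 50 kb of its annotated transcription start site (TSS). By that rule they held 107 of the 31497 peaks of the optimal set, the authors' list made from the pooled and replicate peak lists at their irreproducible discovery rate (IDR) threshold. Binding was measured by chromatin immunoprecipitation with an antibody to MEF2A and sequencing (ChIP-seq) in CH12.LX, an immortalized B cell lymphoma line from a female B10.H-2aH-4bp/Wts mouse of unknown age. The series held 1 group of 2 biological replicates from separate biosamples of that single line, with no treatment named and no second condition. Every value below is therefore a level in 1 line, set beside the other genes or peaks of the same list and beside both replicates, without a test between conditions. Read depth is unknown, and a peak's strength was read from its rank by signal within a list, rank 1 being the strongest.

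When antigen binds the B cell receptor, SRC-family kinases phosphorylate the receptor's signalling chains, which recruit and activate the kinase Syk. Syk phosphorylates the adaptor Blnk, on which the kinase Btk and the phospholipase Plcg2 meet, and the second messengers made by Plcg2 release calcium and activate the protein kinase C encoded by Prkcb. Pik3ap1, also called BCAP, couples the receptor to phosphoinositide 3-kinase. MEF2A, of the MADS-box family of transcription factors, recognises AT-rich DNA, and MEF2 proteins are known targets of calcium signals in B cells.

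The sequences at the strongest peaks of these genes are shown first, because they bear on which letters lay beneath the MEF2A signal. Sequence was read from the mm9 genome (NCBIM37) on its plus strand, over 101 bases centred on the summit of a peak in the mm9 list. Capitals mark the 6 letters CTATTT or their reverse complement AAATAG and any of the elements searched, which are spelled out further on. The first 5 windows are the strongest intronic or upstream peaks of Lyn (chr4:3648780-3648880), Pik3ap1 (chr19:41446961-41447061), Prkcb (chr7:129461110-129461210 and chr7:129400400-129400500) and Plcg2 (chr8:120052041-120052141). The second Plcg2 window (chr8:120067837-120067937) completes the peaks within the strongest 1000 of the mm9 list that held CTATTT.
Lyn intron, rank 18: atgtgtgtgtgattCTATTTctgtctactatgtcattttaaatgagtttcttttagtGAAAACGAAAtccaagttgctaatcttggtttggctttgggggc
Pik3ap1 intron, rank 125: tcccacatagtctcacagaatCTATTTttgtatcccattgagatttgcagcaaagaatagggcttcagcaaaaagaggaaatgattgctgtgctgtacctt
Prkcb intron, rank 225: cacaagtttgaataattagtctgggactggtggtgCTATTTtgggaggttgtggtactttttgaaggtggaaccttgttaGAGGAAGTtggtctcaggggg
Plcg2 intron, rank 261: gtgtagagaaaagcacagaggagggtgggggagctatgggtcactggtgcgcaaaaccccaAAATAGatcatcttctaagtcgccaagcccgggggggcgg
Prkcb upstream, rank 364: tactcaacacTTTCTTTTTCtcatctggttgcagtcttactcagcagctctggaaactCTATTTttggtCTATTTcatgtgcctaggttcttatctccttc
Plcg2 intron, rank 955: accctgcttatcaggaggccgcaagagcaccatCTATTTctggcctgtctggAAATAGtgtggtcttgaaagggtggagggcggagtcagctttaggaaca
The next 3 windows show the single looser MEF2 element within 50 bp of a summit, in Blk (chr14:64018306-64018406), a Syk intron with a RUNX and an octamer element (chr13:52695761-52695861) and the single Btk peak (chrX:131120087-131120187). In the Blk window the looser element is the second stretch in capitals. The first stretch joins TAAAAATA, a match to the core form of the element, with AAATAG.
Blk intron, rank 8782: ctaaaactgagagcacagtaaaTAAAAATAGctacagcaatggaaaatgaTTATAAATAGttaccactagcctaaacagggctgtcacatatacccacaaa
Syk intron, rank 8483: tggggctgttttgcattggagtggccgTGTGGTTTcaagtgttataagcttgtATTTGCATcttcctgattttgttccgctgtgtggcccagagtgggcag
Btk upstream, rank 15596: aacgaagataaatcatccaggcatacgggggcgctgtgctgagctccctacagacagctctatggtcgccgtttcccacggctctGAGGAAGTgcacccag

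All 9 genes had at least 1 optimal peak, by a rule that 68.5% of protein-coding genes met. Most had many: 7 of the 9 had 11 or more peaks, against 4.28% of all genes. The remaining pair, Fyn and Btk, had 2 and 1. The cutoff of 11 is the lowest count among those 7, so it was drawn from these counts and the contrast is a description. The median was 13 peaks per gene here and 2 over all genes. Long genes have wider windows, and per 100 kb of window the 9 genes had a median of 8.56 peaks against 1.73 over all genes. Overlapping intervals occur in the optimal set, where 17% of intervals overlap another, so the 107 peaks fell in 99 separate sites.

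**Figure D1:**
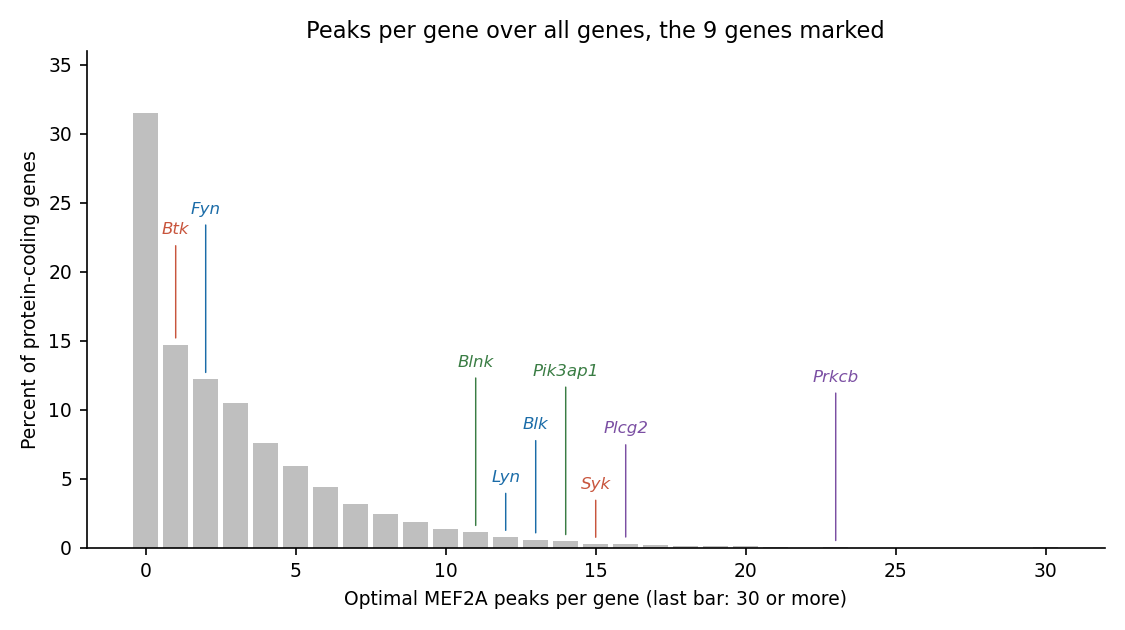
The x axis gives the number of optimal peaks per gene and the y axis the percent of 21532 protein-coding genes, as grey bars, with the last bar holding genes with 30 or more. Lines mark the 9 genes: Btk and Fyn stand among the common counts of 1 and 2, and the other 7 lie between 11 and 23.

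In all, 4 of the 9 genes held a peak within the strongest 1% of the list (315 peaks): Lyn, Prkcb, Pik3ap1 and Plcg2. Among all genes 1.9% did. That share depends on window width and on how many peaks a gene has. The 4 genes had 12 to 23 peaks in windows of 162.6 to 395.3 kb. Over all genes the medians were 2 peaks and 100 kb, so the 1.9% is no matched background. Each of the 4 genes had exactly 1 strongest-1% peak, and these peaks lay inside the gene, between 12.6 and 43.6 kb downstream of the TSS. At the start sites the peaks were weaker. A peak within 1 kb of the annotated TSS was present for 7 genes, against 28.4% of all genes, and was absent for Btk and Prkcb, but none of these 11 promoter peaks reached the strongest 1%. Of the other peaks, 65 lay inside the gene beyond 1 kb and 31 lay upstream.

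**Figure D2:**
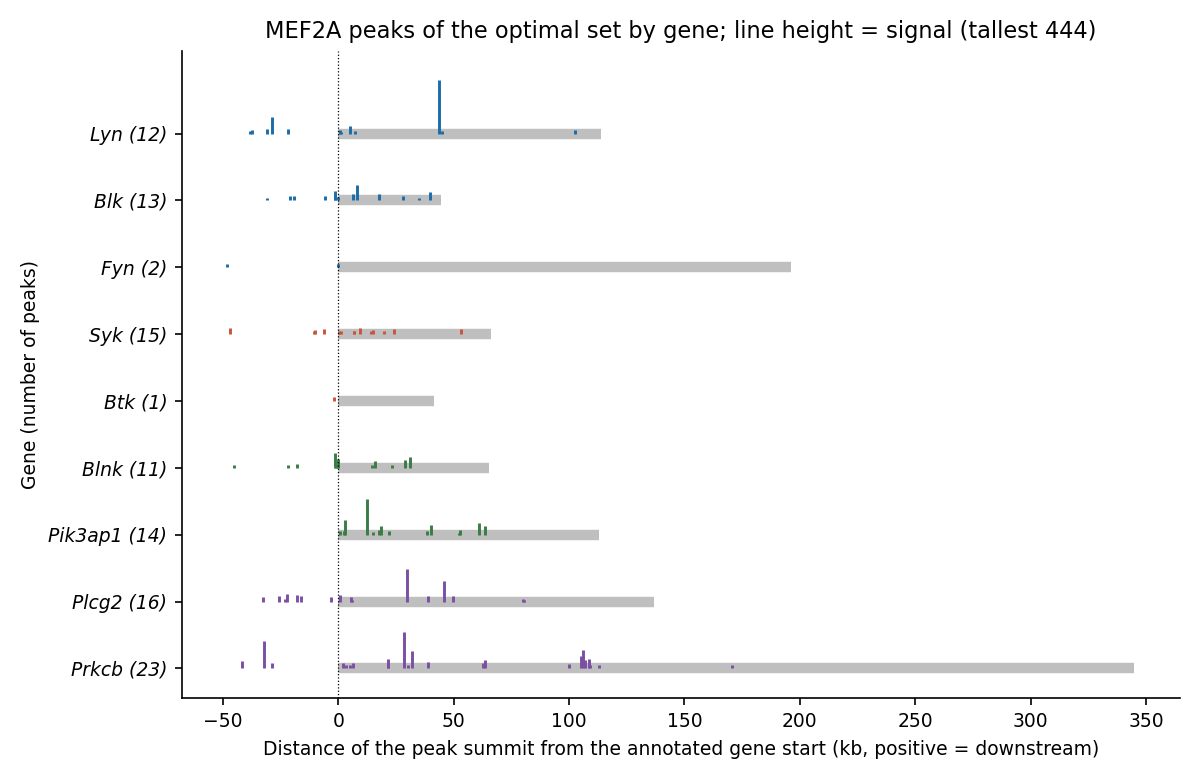
Each row is 1 gene with its number of optimal peaks in brackets, the x axis is the distance of the summit from the annotated start in kb, and the grey bar is the gene. Vertical lines are peaks with a height proportional to signal (Lyn's tallest at 444), and the tallest line of Lyn, Pik3ap1, Plcg2 and Prkcb stands inside the gene rather than at its start.

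Lyn encodes the main SRC-family kinase of B cells, which starts receptor signalling and also feeds inhibitory receptors. It spans chr4:3678068-3791612 on mm10, and held 12 peaks, more than 96.8% of genes. Its strongest peak lay 43.6 kb downstream of the TSS, with a signal of 444 and rank 8 of the whole list. In replicate 1 the overlapping interval ranked 7 of 300000, and in replicate 2 it ranked 11, so both replicates placed it at the top. The next Lyn peak, 28.9 kb upstream, ranked 1339 in the optimal set, 1363 in replicate 1 and 1523 in replicate 2. Another site 5.04 kb into the gene ranked 5512. Both Lyn promoter peaks, at 509 and 955 bp, were weak, with ranks of 20491 and 29098. Lyn also had weak peaks that the replicates placed apart: the one 37.5 kb upstream ranked 143694 in replicate 1 and 13068 in replicate 2. Of the 12 Lyn peaks, 6 overlapped the conservative set, the authors' stricter list, as did 76.6% of all optimal peaks. In both replicates 6 were matched by a strong interval, meaning one within the strongest 31497 of that replicate's list, as were 64.6% of all optimal peaks. One peak 102 kb into Lyn lay nearer the TSS of Rps20, a ribosomal protein gene.

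Blk encodes an SRC-family kinase found mainly in the B lineage. The gene is short, at 44.4 kb (chr14:63372837-63417187), and its 13 peaks gave 13 per 100 kb, a density higher than in 98.3% of genes. The strongest lay 7.88 kb into the gene and ranked 1638, with 1360 in replicate 1 and 1783 in replicate 2. A pair of overlapping intervals 1.45 and 1.65 kb upstream ranked 3938 and 11904, and the peak at the TSS itself, 2 bp from it, ranked 22385. Of the 13 Blk peaks, 12 overlapped the conservative set, against 76.6% of all optimal peaks. Strong intervals in both replicates matched 11, against 64.6% of all optimal peaks. The overlapping pair upstream shared its interval in each replicate, so these matches are not all separate. The median rank of the Blk peaks was 12459. The 3 most distant upstream peaks, 19.1 to 31 kb away, lay nearer the TSS of Fam167a.

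Fyn encodes a broadly expressed SRC-family kinase that is prominent in T cells and neurons. It is long, at 196 kb (chr10:39369743-39565381), yet held only 2 peaks, or 0.814 per 100 kb, which was a higher density than in 34.9% of genes. The one 48.1 kb upstream ranked 21255, with 35648 in replicate 1 and 21012 in replicate 2. The one 22 bp from the TSS ranked 24589, with 45788 and 25121. Both fell in the weaker part of the list, and neither was matched by a strong interval in both replicates. No optimal summit lay inside the gene. The count rests on the library used: the strongest intervals of replicate 1 alone gave Fyn 4 peaks, and the conservative set gave it 1.

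Syk encodes the tyrosine kinase that binds the phosphorylated receptor chains. It held 15 peaks in 13 sites (chr13:52582610-52648792), more than 98.7% of genes, and none was strong. The best lay 9.29 kb into the gene and ranked 7743, with 15867 in replicate 1 and 7154 in replicate 2. It was among 7 summits that ran from 6.59 to 24.2 kb into the gene with gaps of 5 kb or less. Replicate 1 instead ranked the peak 46.9 kb upstream highest for Syk, at 8068, against 16109 in replicate 2. The replicates also differed at the start of Syk. Its 3 promoter peaks, 253 to 967 bp downstream of the TSS, ranked 18623, 18623 and 14770 in replicate 2, the first 2 being overlapped by 1 interval. In replicate 1 the 2 nearest the TSS were not overlapped by any interval, and the other ranked 64464. A peak 14.3 kb from that outermost TSS likewise ranked 17632 in replicate 2 and had no interval in replicate 1. It overlapped the window of a second Syk promoter in the RefSeq table (chr13:52596632-52596931), which the count of promoter peaks does not include. Of the 15 Syk peaks, 11 overlapped the conservative set and 8 were matched by strong intervals in both replicates. The peak 46.9 kb upstream of Syk lay 4.37 kb from the TSS of Diras2.

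Btk encodes the TEC-family kinase whose loss causes X-linked agammaglobulinaemia. It had a single peak (gene at chrX:134542334-134583628), a count that 31.5% of genes fell below. That peak lay 1.97 kb upstream of the Btk TSS and 54 bp from the TSS of Rpl36a, a ribosomal protein gene, so by position alone Btk and Rpl36a cannot be told apart. It ranked 16671 in the optimal set and 13807 in replicate 2, but 233327 of 300000 in replicate 1. It was not part of the conservative set, which left Btk as the single gene of the 9 without a peak there.

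Blnk encodes the adaptor that links Syk to Btk and Plcg2. It held 11 peaks (chr19:40928927-40994221), more than 95.7% of genes, and was the gene whose strongest peak sat closest to its start. The strongest lay 1.57 kb upstream and ranked 1731, with 1918 in replicate 1 and 1879 in replicate 2. A peak 44 bp from the TSS ranked 4871, with 18759 in replicate 1 and 3841 in replicate 2. In the optimal set and in replicate 2 it was the strongest promoter peak among the 9 genes, whereas replicate 1 placed those of Plcg2 (3001) and Pik3ap1 (10530) above it. Inside the gene, peaks 31 and 28.9 kb from the TSS ranked 3334 and 5793 and kept close ranks in both replicates. Of the 11 Blnk peaks, 8 overlapped the conservative set and 5 were matched by strong intervals in both replicates. Upstream, 3 weak peaks lay nearer the TSS of Dntt, which encodes terminal transferase. The RefSeq promoter table (GRCm38.p6) has 1 entry for Blnk. Its 250 bases before the start (chr19:40994222-40994471, minus strand) are shown, with an octamer and an E-box in capitals. The promoter peak overlapped them, as weaker peaks did the windows of Fyn and Syk, which are not printed.
Blnk promoter: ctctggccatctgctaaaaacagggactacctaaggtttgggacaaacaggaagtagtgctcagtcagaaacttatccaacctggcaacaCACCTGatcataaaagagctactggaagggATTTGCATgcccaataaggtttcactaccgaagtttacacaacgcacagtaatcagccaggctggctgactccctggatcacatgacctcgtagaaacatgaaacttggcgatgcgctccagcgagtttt
The octamer began 130 bp and the E-box 160 bp before the start, and 1.74% of all RefSeq promoter windows of that table hold an octamer, against 20.2% for the E-box.

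Pik3ap1 encodes the adaptor BCAP, which binds phosphoinositide 3-kinase. All 14 of its peaks lay within the gene (chr19:41272541-41385102), and none was upstream. The strongest, 12.6 kb from the TSS, ranked 166 with a signal of 295, and the replicates ranked it 238 and 129. A peak 3.07 kb from the TSS ranked 1673, and others 61.1 and 63.7 kb into the gene ranked 2550 and 5122. The latter pair lay nearer the TSS of Tm9sf3, although inside Pik3ap1. The conservative set overlapped 11 of the 14, and 9 were matched by strong intervals in both replicates. Around the strongest site, 5 summits ran from 12.6 to 21.9 kb. In Pik3ap1, 2 intervals had no counterpart in replicate 1 and ranked 12924 and 7693 in replicate 2. The latter overlapped the optimal peak 52.7 kb from the TSS. That peak shared its replicate 2 interval and ranked 135423 in replicate 1.

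Plcg2 encodes the phospholipase C that makes the calcium-releasing messenger in B cells. It held 16 peaks (chr8:117498275-117635142), more than 98.9% of genes. The strongest lay 29.9 kb into the gene and ranked 238, with 169 in replicate 1 and 329 in replicate 2. The second lay 45.7 kb into the gene and ranked 900, with 1113 and 793. Upstream, 5 summits formed a run from 25.8 to 16.2 kb before the TSS, with the best of them at rank 5736. Of the 16 peaks, 13 overlapped the conservative set and 10 were matched by strong intervals in both replicates. The promoter peak, 872 bp downstream of the TSS, ranked 6769, with 3001 in replicate 1 and 15374 in replicate 2. The Plcg2 promoter peak was thus placed higher by replicate 1, opposite to the promoter peak of Blnk.

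Prkcb encodes a conventional protein kinase C that couples the receptor to NF-kB activation. It held 23 peaks in 21 sites, more than 99.8% of genes. The gene is also the longest of the 9, at 345 kb (chr7:122289104-122634402), and its 5.82 peaks per 100 kb exceeded the density in 85% of genes. The strongest lay 28.5 kb into the gene and ranked 140, with 290 in replicate 1 and 72 in replicate 2. A peak 32.2 kb upstream ranked 418, with 558 and 336, and one 106 kb into the gene ranked 1089, with 782 and 1444. That last peak belonged to a run of 7 summits between 100 and 113 kb from the TSS, a second centre of signal far inside the gene. Of its 23 peaks, 21 were matched by strong intervals in both replicates, against 64.6% of all optimal peaks, and 21 overlapped the conservative set, against 76.6%. The peaks 21.5 and 21.3 kb into the gene shared their interval in each replicate. So did the overlapping peaks at 109 kb, and the matches are thus not all separate. The peak 41.8 kb upstream lay nearer the TSS of Chp2.

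Ordered by strongest peak, the genes ran Lyn, Prkcb, Pik3ap1, Plcg2, Blk, Blnk, Syk, Btk and Fyn. The replicates placed Lyn first in both, and both put Plcg2 above Blk, Blk above Blnk, Blnk above Syk and Syk above Btk. Prkcb and Pik3ap1, Pik3ap1 and Plcg2, and Btk and Fyn were ordered differently by the 2 replicates, so those neighbours were not separated. With 2 replicates no test of this order was made.

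**Figure D3:**
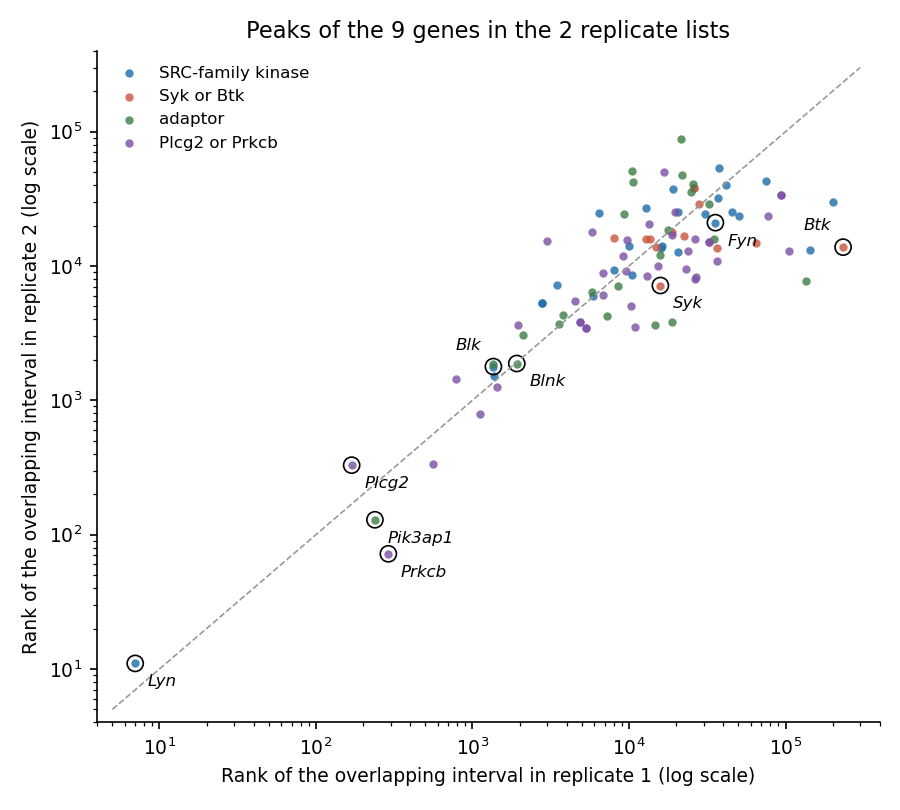
The axes give, on log scales, the rank of the overlapping interval in the replicate 1 and replicate 2 lists for the 102 peaks found in both, coloured by the gene's role, with the strongest peak of each gene ringed and named. Lyn's is near the top of both lists, and Btk's lies far from the dashed line of equal rank.

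Over all 107 peaks, 102 (95.3%) were overlapped by an interval in both replicate lists, against 97.6% of all optimal peaks. Those lists also hold background, so a stricter count used only as many of each list's strongest intervals as the optimal set has peaks. Then 70 (65.4%) were matched in both replicates, against 64.6% of all optimal peaks. The conservative set overlapped 83 (77.6%), against 76.6%. These shares were near the background, so reproducibility did not mark out these genes. The optimal set was itself made from the replicate lists, so the overlap is no independent check. The 5 peaks without an interval in one replicate all lacked it in replicate 1 (3 in Syk and 2 in Pik3ap1). They are peaks and not separate sites, as some of them overlap another optimal peak. Over the whole optimal set the imbalance had the same side, with 661 peaks lacking an interval in replicate 1 and 99 in replicate 2, and its part in the Syk and Pik3ap1 results was not tested.

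The mm9 list, derived by the authors from both replicates aligned to that build, is shorter, with 16839 peaks. In it 8 of the 9 genes had a peak inside the gene or within 50 kb of any annotated TSS, against 55.3% of 22208 genes, and Fyn had none. The genes held 70 peaks, of which 43 had their summit in an intron, 5 in an exon and 22 upstream, and 7 lay within 1 kb of a TSS. Prkcb had 19, Plcg2 12, Blk, Syk and Pik3ap1 9 each, Lyn 6, Blnk 5 and Btk 1. The leading intronic sites lay at distances from a TSS similar to those in the optimal set. The strongest Lyn peak lay 43.6 kb away and ranked 18. That of Pik3ap1 lay 12.5 kb away and ranked 125, and that of Plcg2 lay 29.9 kb away and ranked 261. Both lists came from the same replicates, so this is no independent check. Prkcb differed at its start, where the mm9 list had 2 exonic peaks within 1 kb of a TSS, at ranks 13085 and 16739, while the optimal set had none. No coordinates were converted between builds, and the lists were joined by gene symbol alone.

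The MEF2 element was then searched within 50 bp of each mm9 summit on both strands. The looser consensus has C or T, then TA, then 4 bases that are each A or T, then TA, then A or G. It was present at 1 of the 70 peaks (1.43%), against 7.13% of all mm9 peaks. That match, TTATAAATAG at chr14:64018356-64018365, lay 4 bp from the summit of the Blk intronic peak printed above, which ranked 8782 and had a signal of 60.1. The strict form, which must begin with C and end with G, was present at 0 of the 70, against 3.64% of all peaks. The core form, which leaves off the first and last base, was present at 4, against 11.2%. By gene, 1 of 9 had a peak with the looser element, against 7.72% of all genes. That share depends on how many peaks a gene has. Over all mm9 genes the median was 1 peak and 55.3% had any, so it is no matched background for genes with many peaks. With up to 1 mismatch allowed the count was 10 (14.3%), against 23.6% of all peaks. In this count Pik3ap1 and Prkcb had 3 peaks each, Blk 2, and Syk and Plcg2 1 each.

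The strong peaks were the ones where the element is more frequent in the whole list: 20.3% of the strongest 1000 mm9 peaks held it. Of those 1000, 8 belonged to these genes (4 in Prkcb, 2 in Plcg2, and 1 each in Lyn and Pik3ap1), and 0 of the 8 held it. With up to 1 mismatch 1 of the 8 did, the Prkcb upstream peak, against 54.4% of the 1000. An absent match says only that these letters were not in this window. In the Lyn peak of rank 18 a looser element, TTATATTTAA at chr4:3648959-3648968, lay 133 bp from the summit, outside the window but within the interval.

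The first 6 printed windows share CTATTT, the first 6 letters of 1 form of the looser element, which was searched only after they had been seen. The Plcg2 window of rank 955 was printed because it holds these letters. The stronger Prkcb peaks of ranks 692 and 936 lack them and were not printed. That all 6 windows share the letters thus follows in part from their choice. CTATTT was present at 6 of the 8 strong peaks, those of Lyn, Pik3ap1, both of Plcg2 and 2 of the 4 of Prkcb. Of the strongest 1000 peaks, 40.9% held it. At the 62 weaker peaks of these genes it was present at 5 (8.06%), against 14.5% of all weaker peaks. Over all 70 peaks the count was 11 (15.7%), against 16.1% of all mm9 peaks. CTATTT lay 4 to 34 bp from the summit in the 6 strong peaks. As the letters were picked from these windows, their count there is a description.

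**Figure D4:**
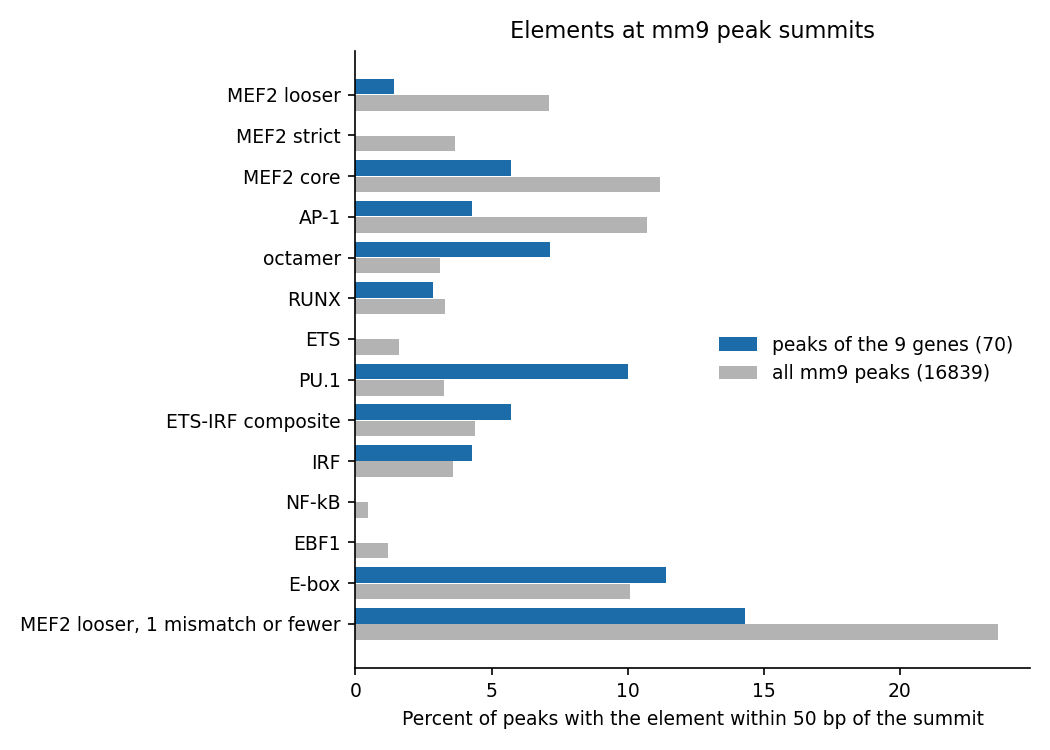
Bars give the percent of mm9 peaks with each element within 50 bp of the summit, in blue for the 70 peaks of the 9 genes and in grey for all 16839 peaks. The MEF2 forms and AP-1 are shorter in blue than in grey, and PU.1 and octamer are longer.

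Elements of other factors known in B cells were searched the same way, as exact letters on both strands. PU.1 is an ETS-family factor of myeloid and B cells. Its element GAGGAAGT was present at 7 peaks (10%), against 3.24% of all peaks, and these lay in Prkcb, Pik3ap1, Blk, Syk, Btk and, for 2 peaks, Plcg2. The octamer ATGCAAAT, bound by Oct-1 and Oct-2, was present at 5 peaks (7.14%), against 3.12%, in Lyn, Blk, Syk and, for 2 peaks, Prkcb. The AP-1 element TGACTCA or TGAGTCA was present at 3 (4.29%), against 10.7%. The E-box CAGGTG was present at 8 (11.4%), against 10.1%, and 6 of these were in Prkcb. The composite of an ETS and an IRF site, GGAANNGAAA, was present at 4 (5.71%), against 4.39%, 3 of them in Plcg2. The IRF element GAAANNGAAA was present at 3 (4.29%), against 3.6%, among them the strongest peak of Lyn, 11 bp from its summit. RUNX elements, TGTGGTTT or TGCGGTTT, were present at 2 (2.86%), against 3.29%. None of the 70 held the ETS element CCGGAAGT, the NF-kB element GGGAANTTCC or the EBF1 element TCCCNNGGGA, whose shares over all peaks were 1.61%, 0.475% and 1.21%. The PU.1 and ETS elements share the letters GGAAGT, and the composite and IRF elements share the GAAA at their end. With 70 peaks from 8 genes these counts are small, neighbouring peaks are not independent, and no test was made. Base composition was alike, with a median GC content of 49.5% in the windows of these genes and in all windows.

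Other genes of the pathway, from lists of receptor chains, adaptors, phosphoinositide 3-kinase subunits, genes downstream of phospholipase C and negative regulators, were counted by the same rule on mm10. Of 45 such genes 43 (95.6%) had an optimal peak, with a median of 8 peaks per gene, and 3 held a strongest-1% peak. The 2 without an optimal peak were Vav3, an exchange factor, and Nck1, an adaptor. Over the 21532 protein-coding genes, 68.5% met the peak rule, 1.9% held a strongest-1% peak, and the median was 2. As the pathway genes had more peaks each, the 1.9% is not matched for peak number. The strongest in each list were Cd79b, a receptor signalling chain, at rank 474, Dapp1, an adaptor, at 331, Pik3cg, a catalytic subunit, at 1295, Rasgrp3, a Ras exchange factor, at 227, and Cblb, a ubiquitin ligase, at 232. Csk, the kinase that restrains SRC-family kinases, was the last of the 3 with a strongest-1% peak, at rank 274, and is named after its value was seen. The looser MEF2 element lay at an mm9 peak of 10 of the 45, against 7.72% of all genes. Of the 45, 43 had an mm9 peak, against 55.3% of all genes, so the 7.72% is no matched background.

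Close relatives of the 9 genes were counted too. Of 23 relatives 18 (78.3%) had an optimal peak, with a median of 4 peaks. The same rule was met by 68.5% of protein-coding genes, whose median was 2. In the mm9 list 5 relatives had a peak with the looser MEF2 element, where the share over all genes was 7.72%. An mm9 peak of any kind was present for 16 of the 23, and for 55.3% of all genes. The 7.72% is thus not matched for peak number here either. Lck, the SRC-family kinase of T cells, had 11 peaks with the best at rank 112, and Yes1 and Frk had none. Zap70, the T cell counterpart of Syk, had 2 with the best at rank 24783. Bmx, a TEC-family kinase like Btk, had none. Lcp2, the T cell counterpart of Blnk, had 14 with the best at rank 518, and Clnk had none. Plcg1, the broadly expressed partner of Plcg2, had none, against 16 at Plcg2. Bank1, related to Pik3ap1, had 5 with the best at rank 1356. Prkca, another conventional protein kinase C, had 47 peaks with the best at rank 31, above the 23 of Prkcb. Lck and Prkca held a strongest-1% peak, as did Tec and Prkce, which are named after their values were seen. Counts thus differed widely within a family, and no measure of their expression was part of these files.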

How the data were processed

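MEF2A ChIP-seq peak lists of 2 replicates were used. The signal of each peak is the authors' deposited value, read only as a rank within a list, and summit offsets are also as deposited. Per the file headers and texts, the replicate lists were called on each sample with a control, the optimal and conservative sets were made from a pooled list and both replicate lists, and the mm9 list came from both replicates' mm9 alignments. Which peak caller and aligner were used is not given in the sources used here. Neither the control library nor the pooled relaxed list was analysed here.

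Genes on mm10 came from the RefSeq table (GRCm38.p6; 21532 of 21883 protein-coding genes usable, with 1 outermost TSS each; strand for 17491 from the promoter table and for 4041, Lyn and Blk among them, from GENCODE vM1 by name). Other genes can share a window. On mm9 all GENCODE vM1 start sites were used, and Syk was found there through a RefSeq synonym. Sequence came from mm9 only. Promoter windows were found for 7 of the 9 genes. Overlap meant 1 bp or more. Python 3.11.15, numpy 2.4.6, pandas 2.3.3 and matplotlib 3.10.9 were used, and peak assignment, overlap and element search were tested on simulated data. The members and gene lists were chosen with earlier results of these data known. Named were the 9 genes, the gene with the strongest peak in each list, every gene lacking a peak in lists with at most 3 of them, and the gene whose TSS was nearest where it was not the member's. Alternatives covered the window, peak set, overlap and element form. Some genes that this rule selects are not reported here.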

Additional observations from a re-analysis of the deposited data

How the results depend on the processing

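All 9 genes had an optimal peak with windows of 10 or 100 kb, and 7 or 8 did under the other settings. All 9 also had one of the strongest intervals of either replicate alone, although in replicate 1 those of Fyn and Btk were not the intervals matching their optimal peaks. The 107 peaks became 11 in promoters only and 60 in the stronger 50% of the optimal set, and stayed within 1.5 times of 107 elsewhere. As separate sites they numbered 99, a setting chosen after seeing the data. In the conservative set Lyn fell from 12 to 6, Fyn from 2 to 1 and Btk from 1 to 0. Blk fell from 13 to 12 and Blnk from 11 to 10, while Prkcb rose from 23 to 28 and Plcg2 from 16 to 17. Of the conservative intervals, 81.7% had the same start and end as an optimal interval, so that set is not simply a subset. The 4 genes with a strongest-1% peak became 0 in promoters only. In the stronger 50% of the set the 1% was taken of that shorter list, and 2 genes passed. The peaks of Pik3ap1 and Plcg2, at ranks 166 and 238, stayed in that list but missed its tighter cutoff. Leaving out a replicate gave 106 to 113 peaks, 9 genes with a peak under both, 4 Fyn peaks without replicate 2 (2 in the main count), and 3 to 4 with a strongest-1% peak. Peaks overlapped in both replicate lists numbered 102, and 94, 88 and 70 under the stricter rules. On mm9 the 70 peaks became 48 to 73 and the 8 genes 7 to 9 with other windows. The single MEF2 peak became 2 within 100 bp of the summit (8.89% of all mm9 peaks held it there), 2 over the whole interval (10.3% of all), 0 for the strict form and 4 for the core form. With 1 mismatch it became 10 and with CTATTT 11, both added after seeing the data. The single gene with such a peak became 2 over the whole interval, 0 for the strict form, 4 for the core form, 5 with 1 mismatch and 6 with CTATTT. No paired analysis was possible because the series has 1 group. Unknown read depth limits what a missing peak shows, and replicates that rank a peak far apart limit its strength to 1 library.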
